A study of Mus musculus with 9 samples.

Results

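Charging of transfer RNA and the supply of amino acids were followed through 47 genes: the cytosolic and mitochondrial aminoacyl-tRNA synthetases, 6 enzymes of amino acid synthesis and one-carbon metabolism, and 5 amino acid transporter genes. They were picked by gene name from the array's annotation; the naming rule uses no measured value, but the list was drawn up with earlier results of these data known. Each of the 47 had at least 1 probe set named with that gene alone, 98 probe sets in all, among 18193 genes and 34945 such probe sets on the array. Synthetase genes with no such probe set were not analysed here. A filter on low signal left 43 of the 47 for testing, among 14122 genes.

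The material was ear skin of C57BL/6 mice, taken 6 h after a substance was put on the ear. There were 3 groups of 3 arrays: DNFB, a chemical allergen by the labels; BAC, a skin irritant by the labels; and the vehicle, acetone with olive oil. Right ears received DNFB or BAC and left ears the vehicle, so side and treatment cannot be told apart; no dose is given in the labels. Replicates are numbered with no word on whether they are different animals, or whether left and right ears came from the same animals. The independence of the groups is therefore not known. The p-values below set differences of group means only against the spread among these arrays, and that spread may be technical.

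Each aminoacyl-tRNA synthetase joins an amino acid to its transfer RNAs, and cytosol and mitochondria use largely separate synthetase genes; Gars and Kars are known to serve both. Many cytosolic synthetase genes, asparagine synthetase and several amino acid transporters are known targets of ATF4, the transcription factor of the integrated stress response. ATF4 pairs with C/EBP proteins on composite sites called C/EBP-ATF response elements.

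After DNFB 15 of the 43 tested members were higher than in the vehicle and 1 was lower. These were 9 cytosolic synthetase genes, Asns and Mthfd2, and 4 transporter genes; Qars was the member that fell. The rises were 1.38-fold to 2.61-fold as ratios of mean signals. A member counts here as higher or lower at a Benjamini-Hochberg adjusted p below 0.05 in limma, taken over all 14122 tested genes. The share of members called higher was 34.9%, where 6.76% of all tested genes were called higher; 2.33% were called lower, where the share over all genes was 7.08%. The median log2 change of the members was 0.23 and that of all tested genes 0.002. In 20 of the 43 the 3 DNFB arrays did not overlap the 3 vehicle arrays (18 higher, 2 lower), which held for 30.9% of all tested genes.

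After BAC 8 members were higher than in the vehicle and 2 were lower. Aars, Nars, Asns, Mthfd2, Slc7a1, Slc3a2, Slc7a5 and Slc1a5 rose, by 1.39-fold to 2.25-fold, and Qars and Hars fell. Called higher were 18.6% of the members and 6.59% of all tested genes; called lower were 4.65% and 7.64%. The median log2 change of the members was 0.04 and that of all tested genes -0.03. In 15 members the BAC and vehicle arrays did not overlap (8 higher, 7 lower), against 34.1% of all tested genes. With each array centred on its median, 3 members were higher and 2 lower, and the share of higher calls among all called genes went from 46.3% to 34.0%. The count of called members was 5, not 10, without any 1 of vehicle replicates 1 and 3 and BAC replicates 2 and 3.

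The 2 comparisons use the same vehicle arrays, so their errors are shared. The direct comparison of DNFB with BAC called 2 members, both higher after DNFB: Eprs and Psph. That is 4.65% of the members, where 3.14% of all tested genes were called higher and 3.66% lower. Its median over the members was 0.21, against 0.03 over all tested genes. The DNFB arrays lay wholly above the BAC arrays in 14 members and wholly below in 0. Of all tested genes 25.2% did not overlap, both directions counted together, and the share for each direction was not computed. The count of called members was 1 without vehicle replicate 1, DNFB replicates 1 or 3, or any 1 of the BAC replicates, and 3 without vehicle replicates 2 or 3 or DNFB replicate 2. A moderated F test over the 3 treatments called 16 members, where the share over all tested genes was 19.4%.

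**Figure D1:**
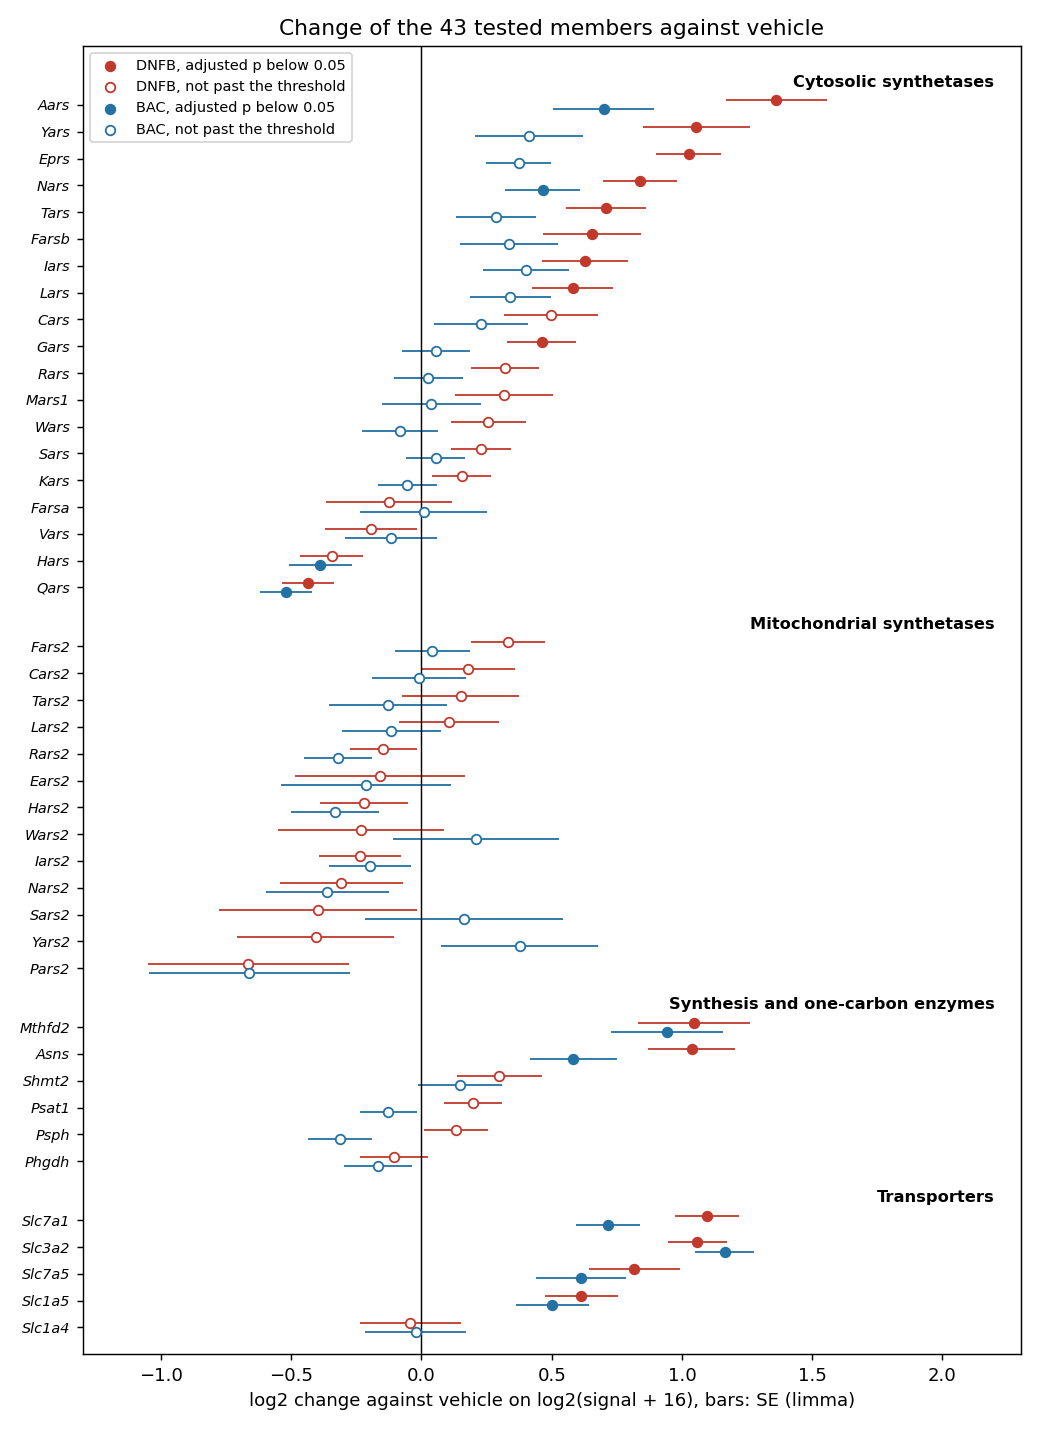
Log2 change of each of the 43 tested members against the vehicle (horizontal axis, on log2 of signal plus 16) with its standard error from limma, for DNFB (red) and BAC (blue); filled points have an adjusted p below 0.05. The cytosolic synthetases spread from -0.44 (Qars) to 1.36 (Aars) after DNFB, and no point of the mitochondrial synthetases is filled.

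The promoter sequences given by RefSeq (build GRCm38.p6) were searched for the core of the C/EBP-ATF response element, since known ATF4 targets are among the members. Each covers 250 bases before to 50 bases after a gene's start. The letters searched were TGATGNAA on either strand; on the gene's own strand a match on the opposite strand reads TTNCATCA. Of 36 members with a promoter in the table, 7 held a match, and 1219 of all 27025 genes with a promoter did (4.51%). A gene counted when any of its promoters held a match. Among genes with a single-gene probe set the share was 3.24%. Matches lay in 6 of the 11 members that were higher after DNFB and had a promoter in the table (Aars, Gars, Iars, Tars, Yars and Asns). Of the 25 other members with a promoter, 4 of which were not tested, 1 held a match, Slc1a4. Slc1a4 counts here by its brightest probe set (-0.04 after DNFB). Another of its probe sets was called higher after DNFB, by 0.60 (limma, adjusted p = 0.0352, each probe set as a feature). The stretches around these matches follow, each 5′ to 3′ on the gene's own strand with the match in capitals, since they show how closely the matches lie to the gene starts. Positions count from 1 at the gene start and backwards from -1.
Aars, chr8:111033700-111033767, plus strand, match from -112: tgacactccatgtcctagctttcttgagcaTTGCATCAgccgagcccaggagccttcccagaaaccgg
Aars, chr8:111033840-111033869, plus strand, match from 10: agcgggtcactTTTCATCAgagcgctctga
Gars, chr6:55037941-55038000, plus strand, match from -30: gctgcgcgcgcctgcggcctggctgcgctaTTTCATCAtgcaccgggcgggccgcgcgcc
Iars, chr13:49682126-49682155, plus strand, match from 8: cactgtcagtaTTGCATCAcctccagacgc
Tars, chr15:11399659-11399703, minus strand, match from -15: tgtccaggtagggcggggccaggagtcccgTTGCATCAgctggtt
Yars, chr4:129189895-129189924, plus strand, match from 4: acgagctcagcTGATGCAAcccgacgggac
Asns, chr6:7693210-7693262, minus strand, match from -23: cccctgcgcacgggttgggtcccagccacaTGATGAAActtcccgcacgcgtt
Slc1a4, chr11:20332699-20332728, minus strand, match from -4: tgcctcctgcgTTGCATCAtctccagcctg

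Of the 8 matches, 7 began between position -30 and 10, and the upstream match of Aars began at -112. Aars was the one member with a pair of matches. The spelling TTGCATCA, or its reverse complement TGATGCAA, occurred in Aars, Iars, Tars, Yars and Slc1a4; Asns, Gars and the downstream match of Aars had TGATGAAA or its reverse complement TTTCATCA. Eprs, Farsb, Mthfd2, Slc3a2 and Slc7a1 were higher after DNFB and held no match in this window. Nars, Lars, Slc1a5 and Slc7a5 were also higher and are named only. The 14 mitochondrial synthetase genes with a promoter in the table held 0 matches. A match describes letters in a window and is neither a shown binding site nor a cause.

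**Figure D2:**
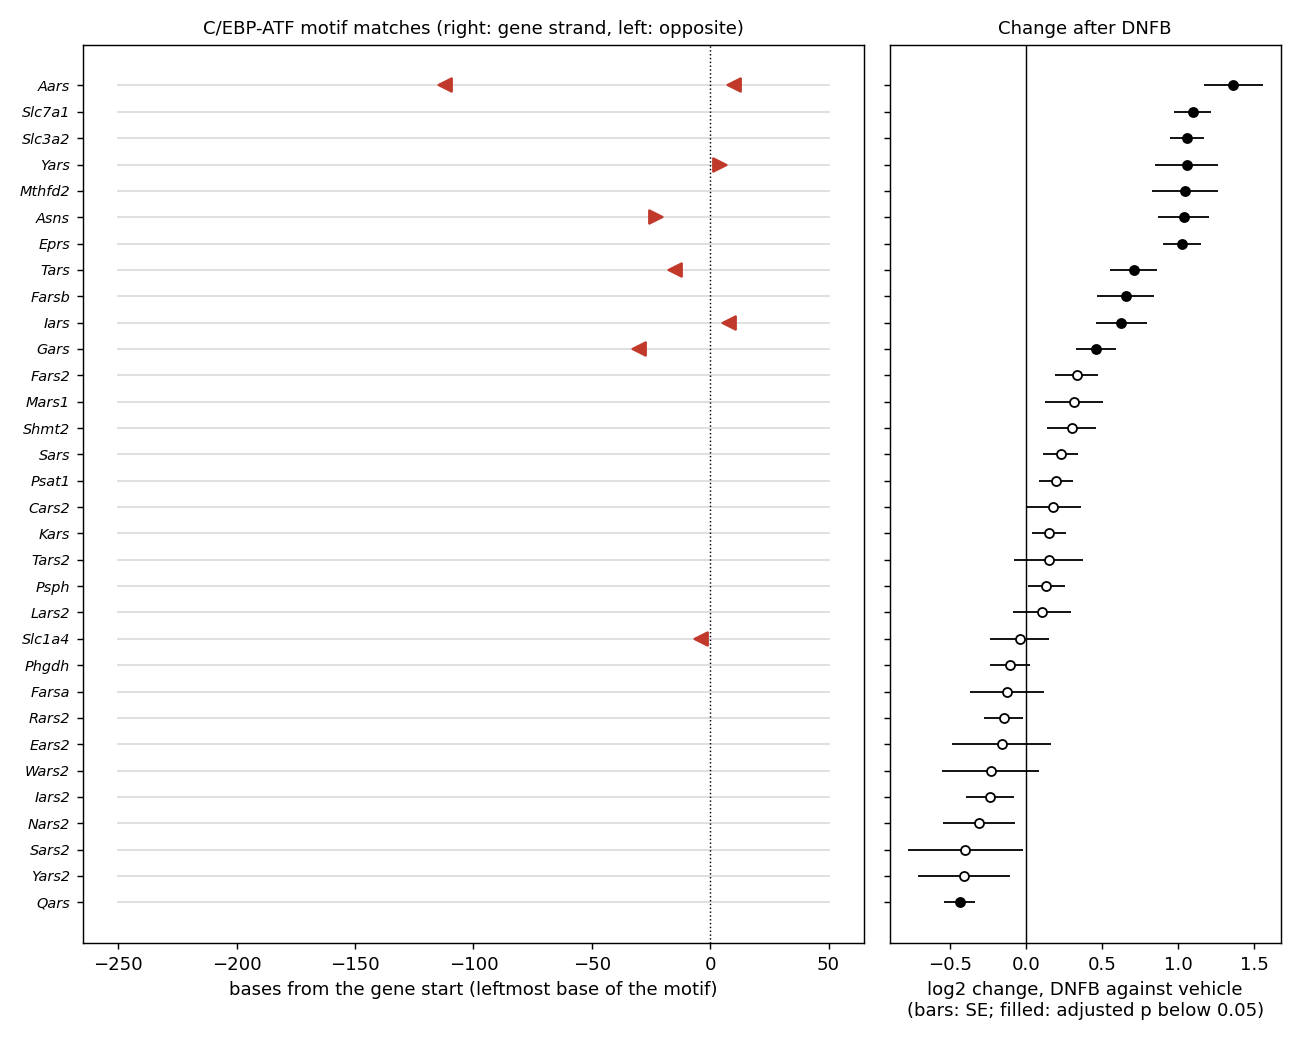
Matches to the C/EBP-ATF core in the promoters of the 32 tested members with a promoter in the table (left; horizontal axis, bases from the gene start) beside the log2 change after DNFB with its standard error (right). Triangles pointing right are matches on the gene's strand and those pointing left are on the opposite strand. Of the 7 members that carry matches, 6 have filled points right of 0. Changes are those of each gene's brightest probe set.

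Cytosolic synthetases made up most of the rises after DNFB: 9 of 19 tested were higher and 1 was lower, with a median log2 change of 0.46. After BAC 2 were higher and 2 lower, with a median of 0.06. As shares of the 19, 47.4% were higher and 5.26% lower after DNFB, and 10.5% each way after BAC. Among all tested genes the shares were 6.76% and 7.08% after DNFB, and 6.59% and 7.64% after BAC. Aars, which charges alanine, gave signals, in replicates 1 to 3 here and throughout, of 520, 648 and 386 with the vehicle, 1739, 1119 and 1203 after DNFB and 695, 995 and 835 after BAC. All DNFB arrays lay above all BAC arrays, which lay above all vehicle arrays. Its log2 change on log2(signal + 16) was 1.36 ± 0.19 (SE, n = 3 arrays a group) after DNFB (limma, adjusted p = 0.000208) and 0.70 ± 0.19 after BAC (adjusted p = 0.0254). Between DNFB and BAC Aars differed by 0.66 (95% interval 0.25 to 1.08), with an adjusted p of 0.054; it was 0.0349 without vehicle replicate 2 and 0.035 without vehicle replicate 3. The BAC call of Aars ended without vehicle replicates 1 or 3 (adjusted p = 0.0605 and 0.118) and without BAC replicates 2 or 3 (0.114 and 0.0708). It also ended with median centring (0.0544) and with no intensity trend in the prior for the spread (0.104).

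Yars, the tyrosine enzyme, was at 368, 340 and 332 in the vehicle arrays, 966, 614 and 674 after DNFB and 318, 586 and 543 after BAC. BAC replicate 1 lay below every vehicle array, while the DNFB arrays stood clear of both other groups. Yars rose by 1.05 ± 0.21 after DNFB (adjusted p = 0.00268), and the BAC value was 0.41 (adjusted p = 0.208), which became 0.68 (0.0213) without BAC replicate 1. Eprs encodes a joined enzyme for glutamate and proline. Its signals were 563, 575 and 741 in the vehicle arrays, 1293, 1286 and 1268 after DNFB and 732, 841 and 863 after BAC. The DNFB arrays were close together and far above the rest, and BAC replicate 1 lay below the highest vehicle array. The change was 1.03 ± 0.13 after DNFB (adjusted p = 5.27e-05) and 0.37 after BAC (0.0601). Eprs was higher after DNFB than after BAC by 0.65 ± 0.13 (adjusted p = 0.00512). The BAC value passed the threshold without vehicle replicate 3 (0.0210) and with quantile normalization (0.0493). The mean over the 4 probe sets of Eprs gave 0.44 between DNFB and BAC (adjusted p = 0.142).

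Nars, for asparagine, read 1549, 1845 and 1577 in the vehicle arrays, 3674, 2718 and 2620 after DNFB and 1911, 2592 and 2415 after BAC. The groups did not overlap in any pairing, with DNFB replicate 1 the highest. It rose by 0.84 ± 0.14 after DNFB (adjusted p = 0.00094) and by 0.47 after BAC (0.0405). The BAC call ended without vehicle replicates 1 or 3 (0.142 and 0.116) and without BAC replicates 2 or 3 (0.163 and 0.125), and also with no filter (0.0596), no intensity trend (0.135), quantile normalization (0.0503), median centring (0.120) or the replicate number as a block (0.0558). Tars, for threonine, read 584, 781 and 492 in the vehicle arrays, 1076, 1044 and 897 after DNFB and 668, 787 and 784 after BAC. The DNFB arrays were above all others, and the other groups overlapped. Tars rose by 0.71 ± 0.15 after DNFB (adjusted p = 0.0056), with 0.28 after BAC (0.244); the BAC value was 0.46 (0.0464) without vehicle replicate 2.

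Farsb, Iars, Lars and Gars also rose after DNFB, by smaller amounts. Farsb, the beta chain of the phenylalanine enzyme, gave 262, 424 and 326 in the vehicle arrays, 592, 544 and 463 after DNFB and 382, 550 and 358 after BAC. Iars, for isoleucine, gave 302, 424 and 340, then 684, 490 and 501 after DNFB and 404, 519 and 495 after BAC. In both genes the DNFB arrays were above the vehicle arrays and overlapped the BAC arrays. Lars, for leucine, gave 413, 526 and 426, then 728, 636 and 692 after DNFB and 456, 698 and 603 after BAC. Gars, for glycine, gave 1443, 1739 and 1410, then 2431, 1823 and 2100 after DNFB and 1389, 1786 and 1604 after BAC. Lars overlapped between DNFB and BAC, while the Gars signals after DNFB were above all others. The log2 changes after DNFB were 0.66 ± 0.19 for Farsb (adjusted p = 0.0306), 0.63 ± 0.17 for Iars (0.0195), 0.58 ± 0.16 for Lars (0.0205) and 0.46 ± 0.13 for Gars (0.0293). After BAC they were 0.34, 0.40, 0.34 and 0.06 in that order, with adjusted p of 0.126 or more; Lars reached 0.51 (0.0399) without BAC replicate 1.

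These 4 calls after DNFB were lost in several settings. In the order Farsb, Iars, Lars, Gars, the adjusted p was 0.15, 0.0981, 0.0896 and 0.11 without vehicle replicate 1, and 0.0881, 0.0682, 0.0792 and 0.114 without vehicle replicate 3. Without DNFB replicate 1 it was 0.105, 0.0892, 0.0674 and 0.12, and with no intensity trend 0.102, 0.072, 0.0759 and 0.112. Farsb was also lost without DNFB replicate 2 (0.0871) and when its probe sets were averaged (0.172), Lars and Gars without DNFB replicate 3 (0.0571 and 0.0712), and Gars with median centring (0.0735). Aars, Yars, Eprs, Nars and Tars passed after DNFB under each of 20 alternatives.

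Qars, the glutamine enzyme, was lower than in the vehicle after both treatments. Its signals were 1818, 2014 and 1845 in the vehicle arrays, 1415, 1297 and 1472 after DNFB and 1311, 1350 and 1283 after BAC. All 6 treated arrays were below the vehicle arrays. Qars fell by 0.44 ± 0.10 after DNFB (limma, adjusted p = 0.00826) and by 0.52 ± 0.10 after BAC (0.00258). Of its other probe sets, 2 were tested and gave -0.21 and -0.10 after DNFB and 0.002 and -0.28 after BAC, none past the threshold; averaging all its probe sets, the adjusted p was 0.331 and 0.548. Hars, for histidine, gave 1132, 1240 and 1193, then 1056, 840 and 910 after DNFB and 870, 1013 and 836 after BAC, again with every treated array below the vehicle. It fell by 0.39 ± 0.12 after BAC (adjusted p = 0.0408), and the DNFB value was -0.34 (0.0708). The BAC call of Hars ended without vehicle replicates 1, 2 or 3 (0.0811, 0.109 and 0.0982), DNFB replicate 3 (0.0525), or BAC replicates 1 or 3 (0.105 and 0.143). It also ended with no intensity trend (0.102), quantile normalization (0.0624), the mean of probe sets (0.089), each probe set as a feature (0.0534) and the replicate number as a block (0.0579). The DNFB value passed without DNFB replicate 1 (0.0365).

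The other 8 tested cytosolic genes did not pass in any comparison on the probe set that represents them. Cars, for cysteine, had mean signals of 439 ± 27.1 (SD, n = 3) in the vehicle, 645 ± 193 after DNFB and 518 ± 54.7 after BAC, with a DNFB change of 0.50 (adjusted p = 0.0831); without DNFB replicate 2 it was 0.73 (0.00617). Rars, for arginine, had means of 878, 1099 and 896, with 0.32 after DNFB (95% interval 0.04 to 0.60) and 0.03 after BAC. Mars1, for methionine, had means of 337, 417 and 344, and Sars, for serine, 1321, 1547 and 1366. A second probe set of Sars was higher after DNFB than after BAC by 0.48 ± 0.13 (adjusted p = 0.0466, each probe set as a feature). Kars, for lysine, had means of 907, 1007 and 869, in the order vehicle, DNFB and BAC. Farsa, the alpha chain beside Farsb, had means of 301, 291 and 301, and Vars, for valine, 310, 273 and 287. The changes of the 2 chains of the phenylalanine enzyme were thus 0.66 for Farsb and -0.13 for Farsa after DNFB, with a wide interval for Farsa, whose SE was 0.24. Tarsl2, a relative of Tars, had means of 46.9, 29.4 and 24.4, fell short of the 40th percentile in 7 of 9 arrays and was not tested.

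Wars, for tryptophan, is a known target of interferon gamma. Its means were 430 ± 76.0, 514 ± 56.8 and 402 ± 19.5, with changes of 0.26 after DNFB (95% interval -0.05 to 0.57) and -0.08 after BAC (-0.39 to 0.23). The other probe sets of Wars gave -0.05, -0.28 and -0.002 after DNFB, and 0.02, -0.43 and 0.07 after BAC. None of them passed the threshold. Among 11 tested genes of the interferon gamma response, 3 were higher after BAC (27.3%) and 1 after DNFB (9.09%). The shares over all tested genes were 6.59% and 6.76%. Gbp2, Gbp3, Ido1, Psmb8, Psmb9, Tap1, Socs1 and Ciita were not called after either treatment. Cxcl10, a chemokine, rose by 3.06 ± 0.36 after BAC (limma, adjusted p = 3.09e-05) and Icam1, an adhesion molecule, by 2.05 ± 0.15 (2.84e-07). Icam1 rose by 0.57 after DNFB (0.0214).

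**Figure D3:**
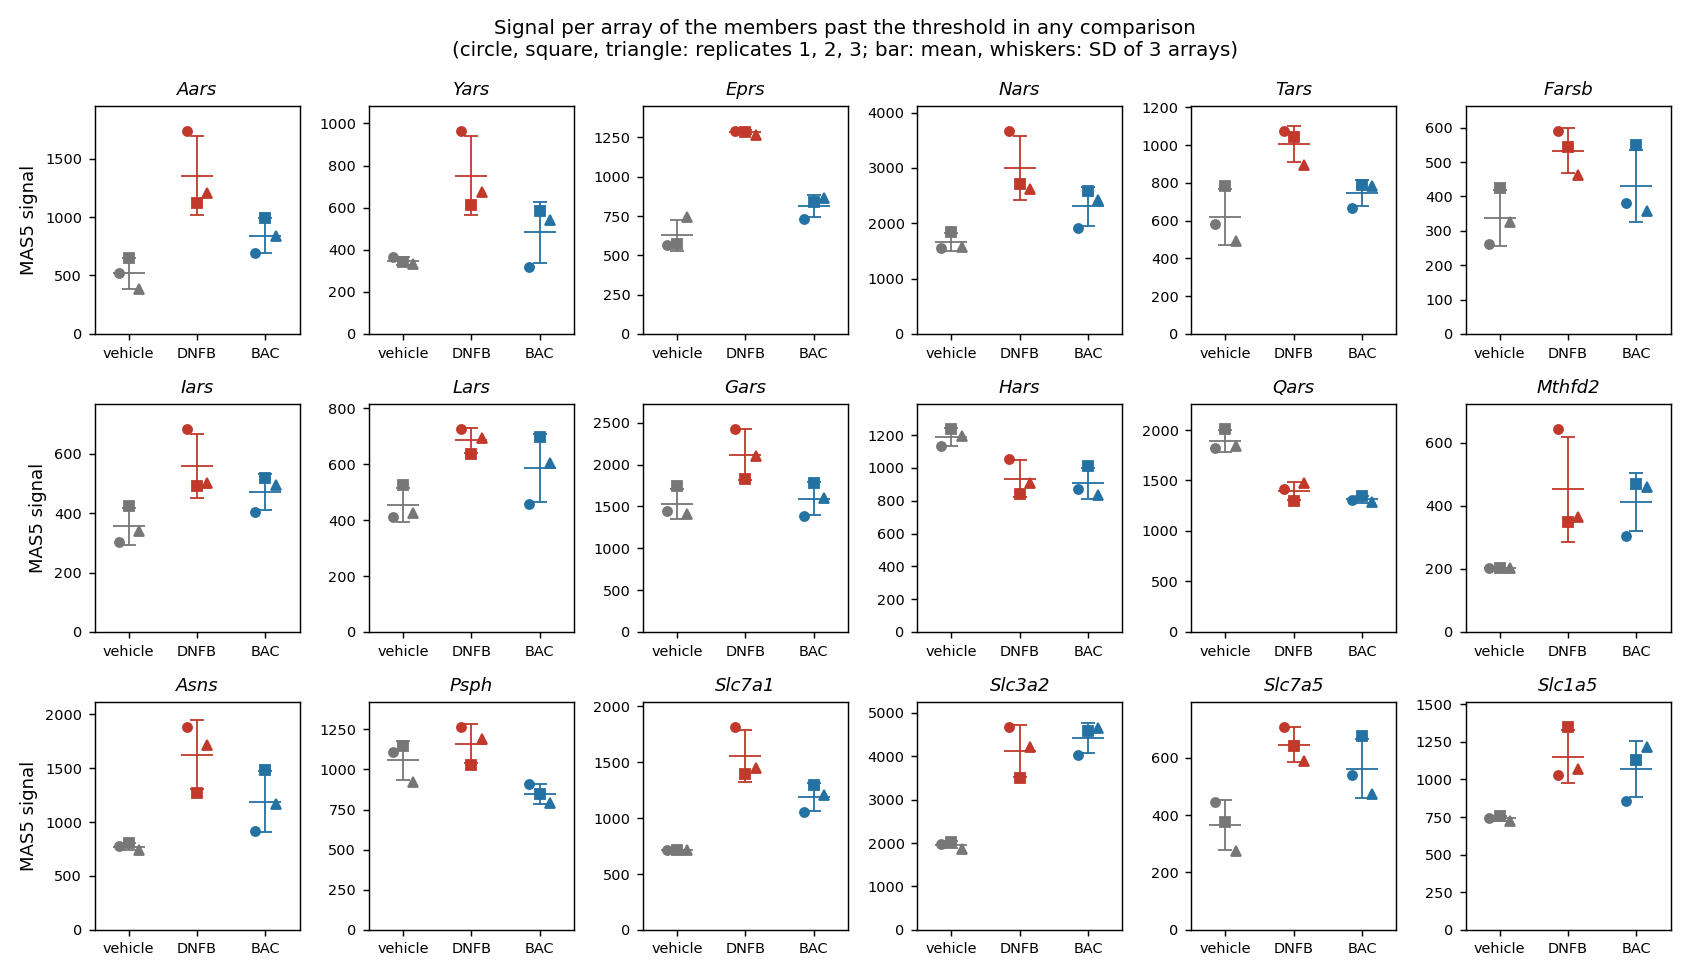
MAS5 signal (vertical axes, linear from 0) in each array for the 18 members past the threshold in any comparison; circle, square and triangle are replicates 1, 2 and 3, the bar is the mean and the whiskers are the SD of 3 arrays. In most panels DNFB replicate 1 is the highest point, and Hars and Qars are the panels with the vehicle on top.

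Synthetases fall into classes I and II by the fold of their catalytic site, and some sit together in the multisynthetase complex. After DNFB 3 of 9 tested class I genes were higher and 1 lower (median 0.32), and 5 of 9 class II genes were higher (median 0.46); Eprs holds both kinds. Of 7 tested members of the complex 3 were higher and 1 lower, and of 12 others 6 were higher. Neither split was tested. Among all tested genes 6.76% were called higher and 7.08% lower after DNFB. Of 15 tested scaffolds and relatives of the synthetases, 0 were called after DNFB, 2 at an unadjusted p below 0.05; Ptrhd1 had the smallest p, with 0.41 (limma, adjusted p = 0.0667). After BAC Eef1e1, a scaffold of the complex, rose by 0.60 (0.0459) and Aarsd1, an editing relative of Aars, fell by 0.60 (0.0409). These calls are 6.67% of the 15 each way, near the 6.59% higher and 7.64% lower among all tested genes.

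Of the 13 tested mitochondrial synthetase genes, 0 were called by limma in any comparison, with 1 at an unadjusted p below 0.05 in each. Among all tested genes 6.76% were called higher and 7.08% lower after DNFB, and 6.59% and 7.64% after BAC. Between DNFB and BAC these shares were 3.14% and 3.66%. The median change of the mitochondrial genes was -0.22 after DNFB and -0.13 after BAC, and 4 of 13 were above 0 in each of these comparisons with the vehicle. Their group means lay between 68.4 and 523, and the SE of a change between 0.13 and 0.39; in the cytosolic group the means lay between 273 and 3004 and the SE between 0.10 and 0.24. The mitochondrial genes were thus dimmer, with larger errors, and what the depth of signal did to their calls was not tested. Fars2, for phenylalanine, had the highest change after DNFB, with means of 313, 399 and 323 and a change of 0.33 (adjusted p = 0.151); its DNFB arrays were above all others. Pars2, for proline, had the lowest, with means of 127, 84.4 and 73.9 and changes of -0.67 and -0.66 (0.301 and 0.287). Rars2, for arginine, had means of 523, 469 and 415 and the smallest adjusted p after BAC, 0.116, at -0.32.

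The remaining mitochondrial means are given in the order vehicle, DNFB and BAC. Cars2 (138, 158 and 137), Tars2 (176, 195 and 162) and Lars2 (188, 204 and 175) had positive changes after DNFB, of 0.18, 0.15 and 0.11. Ears2 (87.9, 81.1 and 74.8), Hars2 (249, 212 and 194), Iars2 (326, 274 and 281) and Nars2 (132, 105 and 98.8) had negative values after both treatments. Wars2 (107, 85.4 and 124), Sars2 (121, 97.8 and 134) and Yars2 (93.1, 68.4 and 125) were negative after DNFB and positive after BAC, with overlapping arrays. For Yars2 the difference between DNFB and BAC was -0.79 ± 0.30 (adjusted p = 0.141). Aars2 (23.8, 17.3 and 25.2), Mars2 (20.5, 20.2 and 37.9) and Vars2 (23.0, 33.3 and 37.2) were too dim to be tested.

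**Figure D4:**
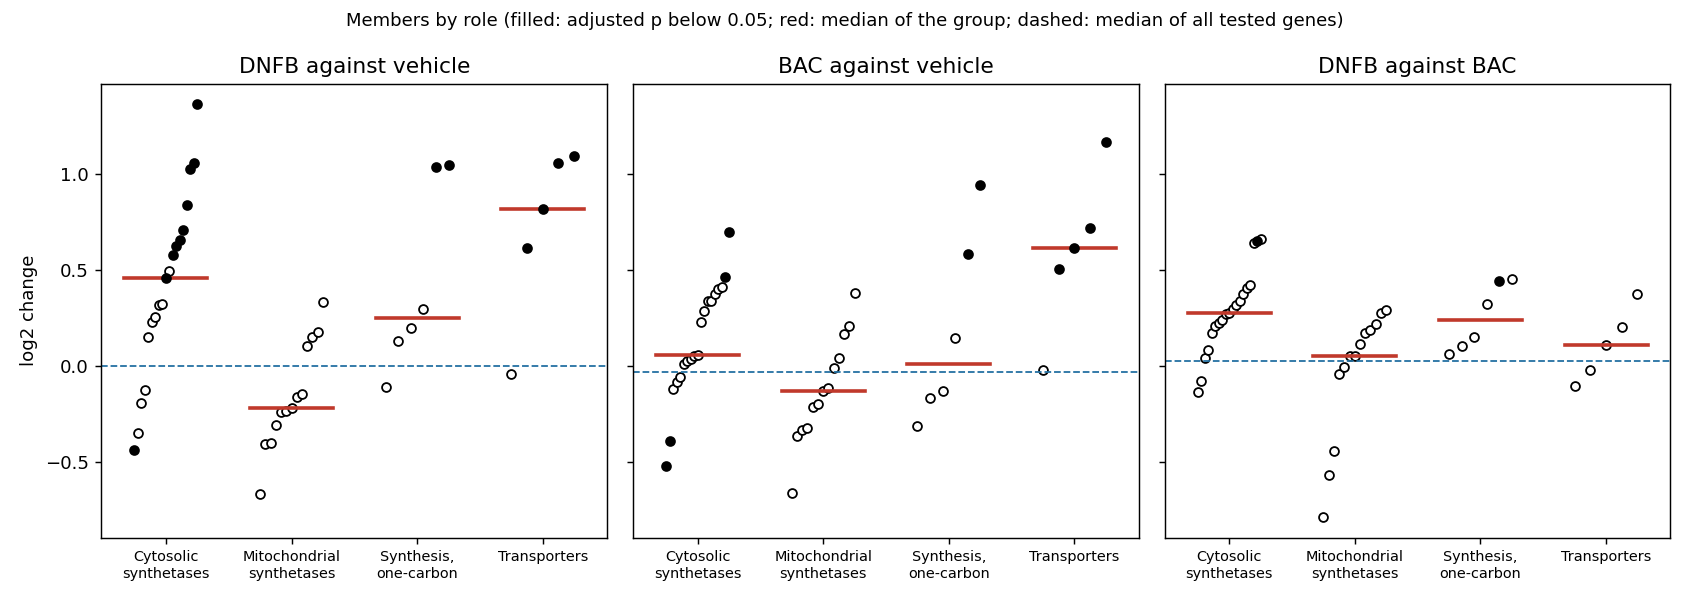
Log2 change of every tested member (vertical axis) by role in the 3 comparisons; filled points have an adjusted p below 0.05, red bars are the medians of the roles and dashed lines the medians of all tested genes. After DNFB the red bars are at 0.46 for cytosolic synthetases, -0.22 for mitochondrial synthetases, 0.25 for the enzymes and 0.82 for the transporters.

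Of the 6 enzymes, Asns and Mthfd2 rose after both treatments. That is 33.3% called higher, where the share over all tested genes was 6.76% after DNFB and 6.59% after BAC. Asns makes asparagine from aspartate. It gave 780, 803 and 736 in the vehicle arrays, 1885, 1268 and 1718 after DNFB and 917, 1482 and 1163 after BAC. Every treated array was above the vehicle arrays, and DNFB and BAC overlapped. Asns rose by 1.04 ± 0.17 after DNFB (limma, adjusted p = 0.000557) and by 0.58 after BAC (0.0291). The difference between DNFB and BAC was 0.45 (adjusted p = 0.122), and 0.62 (0.0494) without DNFB replicate 2. The BAC call ended without vehicle replicates 1, 2 or 3 (0.073, 0.050 and 0.0877) or BAC replicates 2 or 3 (0.144 and 0.0763). It also ended with no intensity trend (0.11), median centring (0.0679) and the mean of probe sets (0.051).

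Mthfd2 is a mitochondrial enzyme of one-carbon folate metabolism. Its signals were 203, 202 and 202 in the vehicle arrays, 645, 348 and 365 after DNFB and 305, 468 and 460 after BAC. Every treated array was above the vehicle arrays, which were almost equal, and the treated groups overlapped. Mthfd2 rose by 1.04 ± 0.22 after DNFB (adjusted p = 0.00398) and by 0.94 after BAC (0.00813), in all 20 alternatives. Its second probe set rose by 1.999 ± 0.23 after DNFB (adjusted p = 3.64e-05) and by 1.29 after BAC (0.00154), in a fit with each probe set as a feature.

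Of the other 4 enzymes, which belong to serine metabolism, Psph passed between DNFB and BAC and none passed against the vehicle. Psph, the last enzyme of serine synthesis, gave 1108, 1147 and 920 in the vehicle arrays, 1267, 1028 and 1189 after DNFB and 910, 846 and 788 after BAC. The BAC arrays were below all others and the other groups overlapped. Its changes were 0.13 after DNFB (adjusted p = 0.556) and -0.31 after BAC (0.111), and DNFB was higher than BAC by 0.44 ± 0.12 (0.0416). That call ended without vehicle replicate 1 (0.0604), DNFB replicates 1 or 3 (0.114 and 0.12), or BAC replicates 1, 2 or 3 (0.0578, 0.115 and 0.128). It also ended with no intensity trend (0.125), quantile normalization (0.0501), median centring (0.0641), the mean of probe sets (0.0518) and each probe set as a feature (0.0541). Psat1, the step before Psph, had means of 1283, 1470 and 1172 and a DNFB change of 0.20 (adjusted p = 0.28). Phgdh, the first step, had means of 1124, 1044 and 995 and changes of -0.11 and -0.17. Phgdh has near-identical gene copies that can share its probes; averaged over its probe sets the BAC value was -0.36 (0.0449), and one other probe set alone gave -0.48 (0.0171). Shmt2, which moves a carbon unit from serine to folate in mitochondria, had means of 261, 325 and 290 and changes of 0.30 and 0.15.

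Of the 5 transporter genes 4 rose after DNFB and the same 4 after BAC, with medians over the 5 of 0.82 and 0.61. The 4 are 80% of the group, where 6.76% of all tested genes were called higher after DNFB and 6.59% after BAC. Slc7a1, a carrier of cationic amino acids, gave 714, 714 and 715 in the vehicle arrays, 1820, 1392 and 1452 after DNFB and 1058, 1300 and 1208 after BAC. The groups did not overlap in any pairing and DNFB was the highest. It rose by 1.09 ± 0.12 after DNFB (limma, adjusted p = 2.36e-05) and by 0.72 after BAC (0.00101), in all 20 alternatives. The difference between DNFB and BAC was 0.38 (95% interval 0.11 to 0.64), with an adjusted p of 0.0805.

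Slc3a2 encodes the heavy chain that brings several light-chain carriers, Slc7a5 among them, to the cell surface. It gave 1984, 2027 and 1873 in the vehicle arrays, 4685, 3495 and 4209 after DNFB and 4019, 4586 and 4655 after BAC. All treated arrays were far above the vehicle arrays and the treated groups overlapped. Slc3a2 rose by 1.06 ± 0.11 after DNFB (adjusted p = 1.5e-05) and by 1.16 ± 0.11 after BAC (5.15e-06), in all 20 alternatives; the difference between DNFB and BAC was -0.10 (95% interval -0.35 to 0.14). Slc7a5, the large neutral amino acid carrier, gave 446, 376 and 273, then 708, 640 and 588 after DNFB and 538, 674 and 473 after BAC. All treated arrays exceeded the vehicle arrays. Slc7a5 rose by 0.82 ± 0.17 after DNFB (adjusted p = 0.00496) and by 0.61 after BAC (0.0283). The BAC call ended without vehicle replicate 3 (0.129), BAC replicate 1 (0.0532) or BAC replicate 2 (0.132), with no intensity trend (0.0909) and with median centring (0.0835).

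Slc1a5, a neutral amino acid exchanger known for glutamine, gave 741, 757 and 725 in the vehicle arrays, 1030, 1351 and 1070 after DNFB and 857, 1132 and 1215 after BAC. Every treated array was above the vehicle arrays. It rose by 0.61 ± 0.14 after DNFB (limma, adjusted p = 0.00828) and by 0.50 after BAC (0.0263). The BAC call ended without vehicle replicates 1 or 3 (0.0742 and 0.075) or BAC replicates 2 or 3 (0.099 and 0.118), and with median centring (0.126). With no intensity trend the adjusted p was 0.0531 after DNFB and 0.0909 after BAC. A dimmer second probe set gave -0.41 and -0.45, not past the threshold, and with the mean of both the changes were 0.10 (0.664) and 0.03 (0.927). Slc1a4, a related carrier of alanine, serine and cysteine, had means of 259 ± 11.5, 258 ± 76.5 and 257 ± 41.4 and changes of -0.04 and -0.02. Its probe sets disagreed: another one gave 209, 194 and 188 in the vehicle arrays, 321, 307 and 288 after DNFB and 158, 132 and 113 after BAC. There Slc1a4 was higher after DNFB than in the vehicle by 0.60 ± 0.17 (adjusted p = 0.0352) and than after BAC by 1.11 ± 0.17 (0.00125).

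Over all members called after DNFB, 15 further probe sets were tested; 13 had the same direction, 7 were called in it and 0 were called in the opposite one. After BAC 9 were tested, of which 7 had the same direction, 4 were called in it and 0 in the opposite one.

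Genes linked to the integrated stress response were measured beside the members. Of 21 tested, 10 were higher and 1 lower after DNFB (47.6% and 4.76%), and 7 were higher and 1 lower after BAC (33.3% and 4.76%). The shares over all tested genes were 6.76% and 7.08% after DNFB, and 6.59% and 7.64% after BAC. Eif2ak1, Eif2ak2, Eif2ak3, Eif2ak4 and Gcn1, also among the 21, were not called after either treatment. Atf4, the central factor, had means of 3022 ± 275, 6038 ± 702 and 6078 ± 748, with changes of 0.99 ± 0.12 after DNFB (limma, adjusted p = 4.28e-05) and 1.001 ± 0.12 after BAC (3.52e-05). Ppp1r15a, a phosphatase subunit that reverses the response, went from 847 ± 154 to 4626 ± 468 after DNFB, a change of 2.44 ± 0.14 (4.13e-08), and to 1712 ± 245 after BAC. Ddit3, which encodes CHOP, rose by 2.12 ± 0.20 after DNFB (3.52e-06) and by 1.28 after BAC (0.000392). Chac1, an enzyme that degrades glutathione, rose by 1.31 after DNFB (0.00109) and by 2.27 ± 0.23 after BAC (6.36e-06). Between DNFB and BAC, Ppp1r15a was higher after DNFB by 1.43 (1.8e-05) and Ddit3 by 0.84 (0.0183), while the difference for Chac1 was -0.96 (0.0188). The gene that fell after DNFB was Ddit4, an inhibitor of mTORC1 signalling, at -1.25 ± 0.14 (2.36e-05), and Vldlr, a lipoprotein receptor, fell by 0.51 after BAC (0.0466).

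Of 22 other amino acid carriers tested, 2 were higher and 2 lower after DNFB, 9.09% each way. The shares over all tested genes were 6.76% higher and 7.08% lower after DNFB, and 6.59% and 7.64% after BAC. Slc7a11, the cystine carrier, had dim means of 43.6 ± 15.8, 148 ± 81.5 and 84.4 ± 38.5 and rose by 1.39 ± 0.37 after DNFB (limma, adjusted p = 0.0219). Slc16a10, an aromatic amino acid carrier, rose by 0.89 (0.0249), while Slc6a6, for taurine, fell by 0.71 (0.0310) and Slc6a9, for glycine, fell by 0.52 (0.0224). After BAC 0 of the 22 were called, with 9 at an unadjusted p below 0.05; Slc1a3, for glutamate, had 1.21 (adjusted p = 0.0518). Of 19 other amino acid and one-carbon enzymes, 1 was higher after DNFB (5.26%) and 2 after BAC (10.5%), not far from the shares over all genes. Shmt1, the cytosolic relative of Shmt2, rose by 0.54 and 0.73 (0.0348 and 0.00576), and Got1, an aspartate aminotransferase, rose by 0.44 after BAC (0.0158). Of 9 elongation factor genes 0 were called after DNFB, 1 at an unadjusted p below 0.05 (Eef1a1, 0.34, adjusted p = 0.0657), and Eef2k, a kinase that slows elongation, fell by 0.49 after BAC (0.0369).

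Cell type markers moved with the groups. For the counts that follow, the shares over all tested genes were 6.76% higher and 7.08% lower after DNFB. After BAC they were 6.59% and 7.64%. In such bulk tissue, fewer cells of a type and less RNA per cell cannot be told apart. Of 11 tested neutrophil markers 6 were higher after DNFB and 7 after BAC, and the summed signal of 12 ranged from 1540 to 6005 in the vehicle arrays, 11520 to 21240 after DNFB and 20130 to 29060 after BAC; Camp was below the 40th percentile in every array. S100a9 and S100a8, subunits of calprotectin, had the largest changes, 3.03 and 2.88 after DNFB and 3.74 and 3.58 after BAC. They made up most of the summed signal, for example 2633 (S100a9) and 2565 (S100a8) of 6005 in vehicle replicate 2. In DNFB replicate 1 they gave 4837 and 4505 of 11520. Mpo, Elane, Ngp and Ltf were not called after either treatment, and Ltf had -0.28 after DNFB. Of 12 monocyte and macrophage markers 4 were higher after each treatment, with sums of 14940 to 17750, 18810 to 20930 and 21160 to 21570. Cd14, a receptor for bacterial lipopolysaccharide, rose by 0.79 and 1.58, the lysosomal marker Cd68 by 0.58 after DNFB and the chemokine receptor Ccr2 by 1.14 after BAC. The change was above 0 in 8 of these 12 markers after DNFB and in 10 after BAC. Below 0 after DNFB were Cd163 (-0.36), C1qa (-0.20), Adgre1 (-0.14) and Mrc1 (-0.11). After BAC Cd163 (-0.25) and C1qa (-0.05) were below 0, and none of these negative changes passed the threshold. All 10 keratinocyte markers passed the filter on low signal, and 8 were lower after DNFB and 4 after BAC, with sums of 75230 to 83100, 63000 to 73200 and 72580 to 73310. Trp63, a transcription factor of basal keratinocytes, fell by 1.10 after DNFB and had -0.06 after BAC. The keratin gene Krt1 fell by 0.92 after DNFB and by 0.66 after BAC, and Krt15 fell by 0.81 after BAC. Not all 10 went down: 1 had a change above 0 after DNFB (Krt10, 0.33) and 3 after BAC. These 3 were Sfn (0.41), Krt10 (0.21) and Krt14 (0.15), and none of these positive changes passed the threshold. Of 12 skeletal muscle markers 4 were higher after DNFB and 0 after BAC (2 at an unadjusted p below 0.05), with sums of 27370 to 36590, 38410 to 46610 and 30280 to 48240. The troponin genes Tnnt3 and Tnni2 rose by 0.63 and 0.58 after DNFB, and Acta1 had the smallest p after BAC, at 0.35 (limma, adjusted p = 0.0728). Of 10 fibroblast markers 3 were higher after DNFB and 1 after BAC, with sums of 64350 to 73300, 81610 to 91730 and 73210 to 84490. Mfap5, a microfibril protein, rose by 0.78 after DNFB and by 0.37 after BAC, and Lum, a matrix proteoglycan, by 0.39 after DNFB. Their part in the members' changes was not tested.

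Single arrays also stood apart. DNFB replicate 1 had the highest signal of its group in 14 of the 15 members that rose, and BAC replicate 1 the lowest of its group in 7 of 8. The Gapdh control probe sets, whose 3' to 5' ratio grows as RNA degrades, gave ratios of 0.841, 1.36 and 0.943 for the DNFB arrays, 0.856 to 0.880 for the vehicle and 0.917 to 0.932 for BAC. The median signal of an array lay between 71.2 and 86.3. The part of RNA quality in these values was not tested; without DNFB replicate 2 the DNFB comparison called 16 members, with Farsb lost (adjusted p = 0.0871) and Cars gained (0.00617).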

How the data were processed

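Per the submitters' processing notes, the authors made the deposited intensities with MAS5 in the Affymetrix Expression Console, with no version given in the sources used here: 1 linear signal per probe set and array. The mean signal without the highest and lowest 2% of probe sets was 250.001 in each array, so the arrays had been scaled to one target, which fixes signals relative to each array's total. Control probe sets (64), probe sets naming several genes (932) and unnamed ones (9160) were left out.

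Each gene took its brightest probe set by mean log2 value, and was tested when above the array's 40th percentile in at least 3 of 9 arrays. log2(signal + 16), which understates changes of dim genes, went into limma 3.58.1 under R 4.3.3 (lmFit; eBayes with intensity trend; residual degrees of freedom 6, prior 9.09), all 9 arrays in one model, two-sided, Benjamini-Hochberg over 14122 genes. The fit was tested on simulated data. An exact permutation test of 3 against 3 arrays cannot go below 0.1 and was not run.

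Members and lists were chosen with earlier results of these data known. Every member is named with its means or signals, members past the threshold with every array, and of each other list up to 2 called genes with the largest change in each comparison with the vehicle, or the one with the smallest p; further genes were chosen after their values were seen. Synthetase classes and complex membership were added from textbook knowledge.

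Same-numbered arrays of different groups had correlations of their deviations from group means between -0.122 and 0.153, so the replicate numbers were not taken to pair arrays. Alternatives changed the pseudocount, filter, prior, normalization, probe set choice, arrays in the fit and the replicate block, and left out each array.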

Additional observations from a re-analysis of the deposited data

Results flagged for a closer look

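Eprs was singled out because its changes after DNFB and BAC differed in a direct test: the log2 difference was 0.653 ± 0.13 (SE, n = 3 arrays a group), with a limma adjusted p of 0.00512. The difference was positive on all 3 of its other probe sets, at 0.18, 0.70 and 0.22, and none of those passed.

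Psph was singled out for the same reason. Its log2 difference between DNFB and BAC was 0.444 ± 0.12, with a limma adjusted p of 0.0416, and all 3 DNFB arrays were above all 3 BAC arrays. This call was lost in 11 of 20 alternatives.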

How the results depend on the processing

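After DNFB between 11 and 17 members were called under each of the 20 alternatives (16 as reported), and 12 to 16 when single arrays were left out. After BAC, 10 members were called; 4 were with no intensity trend, 5 with median centring, and 5 to 10 without single arrays. Between DNFB and BAC, 2 members were called; 1 was with no intensity trend, 1 with quantile normalization and 1 to 3 without single arrays. When probe sets of a gene were averaged, limma called 0 there, 13 members having an unadjusted p below 0.05. The F test called 8 members with no intensity trend (16 as reported). With the replicate number as a block, 16, 8 and 2 members were called in the 3 comparisons and 15 by the F test, Nars (adjusted p = 0.0558) and Hars (0.0579) being lost after BAC; of the same-number pairs of arrays, 1 of 9 correlated above 0.1 and 0 arrays correlated best with their own number. No called value turned its direction in any alternative run. Of the single values, 2439 stayed called, or stayed uncalled with a change within the spread. Another 83 no longer passed, 16 newly passed, and 30 stayed uncalled but moved beyond the spread. The cause was not tested. The number of arrays, 3 a group, limits precision. The dimmer mitochondrial genes had a median SE of 0.23 after DNFB, against 0.15 in the cytosolic genes. The part of signal level in this was not tested.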
